A study of Mus musculus with 6 samples.

Results

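Nkx2-1, Pax8, Foxe1, Hhex and Glis3 are the 5 thyroid transcription factors described here, chosen by name out of the 25239 genes in the count table. Their mRNA was measured by bulk RNA-seq in mouse embryonic stem cell-derived thyroid organoids at day 31, in 3 groups of 2 libraries, each library pooling at least 3 wells. All groups came from the G4 RosaLuc line, which carries the TRE-Nkx2-1-Pax8 cassette and the bTg-NES-BrafV637E-ERT2 cassette. All had received 1 µg/ml doxycycline for 5 days to switch on the Nkx2-1 and Pax8 transgenes, then 8-Br-cAMP, an analog of cyclic AMP, for 2 weeks, and follicles were enriched by straining. In the cAMP group 8-Br-cAMP was continued with the ethanol vehicle in place of 4-hydroxytamoxifen. In the 4OHT group, 8-Br-cAMP was joined for 5 days by 1 µM 4-hydroxytamoxifen, the ligand that activates the Braf V637E protein fused to ERT2. In the PD+LY group, 250 nM PD0325901, a MEK inhibitor, and 5 µM LY204002, given as a PI3K inhibitor, were present for 3 days together with 4-hydroxytamoxifen and 8-Br-cAMP. By the methods, inhibitor cultures had already spent days in 4-hydroxytamoxifen before the inhibitors and kept it during them, for longer in all than the 5 days of the 4OHT group, so the inhibitors and the longer oncogene activation cannot be told apart between these groups.

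The model sets limits on what these counts mean. The line came from clones picked after transfection into the modified Rosa26 locus, the Braf fusion is driven by a bovine Tg promoter and is carried in all groups including the controls, and the organoids hold cells other than thyrocytes. Counts of Nkx2-1 and Pax8 cannot separate the endogenous transcript from that of the transgene. The libraries held 14898409 to 20637959 counts, so 3 counts, taken as the floor, correspond to a CPM (counts scaled to the same library total, after TMM normalization) of 0.146 to 0.2. The labels do not say that the libraries of a group came from separate differentiations, so p-values measure the spread between these libraries, which may be technical. Braf, whose counts merge the endogenous gene and the fusion, stood at 95.3 and 85.5 CPM in cAMP, 61.8 and 61.4 in 4OHT and 59.2 and 48.1 in PD+LY. Since 4-hydroxytamoxifen acts on the fusion protein, these counts do not check the labels.

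Nkx2-1, Pax8, Foxe1 and Hhex are present together in the thyroid bud and in the adult follicular cell, and this combination is found in no other tissue. Nkx2-1 and Pax8 bind the regulatory regions of hormone synthesis genes such as thyroglobulin and act on them together, while each is also used elsewhere, Nkx2-1 in lung and ventral forebrain, Pax8 in kidney and inner ear. Foxe1 is a forkhead protein needed for migration of the thyroid bud and for hormone gene expression, Hhex is a homeobox protein of foregut endoderm, liver and early endothelium, and Glis3 is a Krüppel-like zinc finger protein that acts after TSH receptor signalling and is also needed in pancreatic beta cells and kidney.

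The data gave a different pattern for different factors. Foxe1 and Glis3 rose in PD+LY, 2.43-fold and 2.17-fold over 4OHT and 2.02-fold and 2.31-fold over cAMP. The calls of Glis3 held in every alternative fit, and those of Foxe1 did not. Nkx2-1, Pax8 and Hhex passed the test in none of the 3 comparisons, and their log2 fold changes lay between -0.34 and 0.38. No factor passed the test between 4OHT and cAMP. All 5 factors were above the floor in every library and all 5 entered the test, so none was lost to the filter on low counts. A change was called at an adjusted p under 0.05 in edgeR's quasi-likelihood test, with Benjamini-Hochberg adjustment over 15256 genes. In bulk libraries, fewer cells of a type and less RNA per cell cannot be told apart. The comparisons share groups, so their results are not independent of each other.

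**Figure D1:**
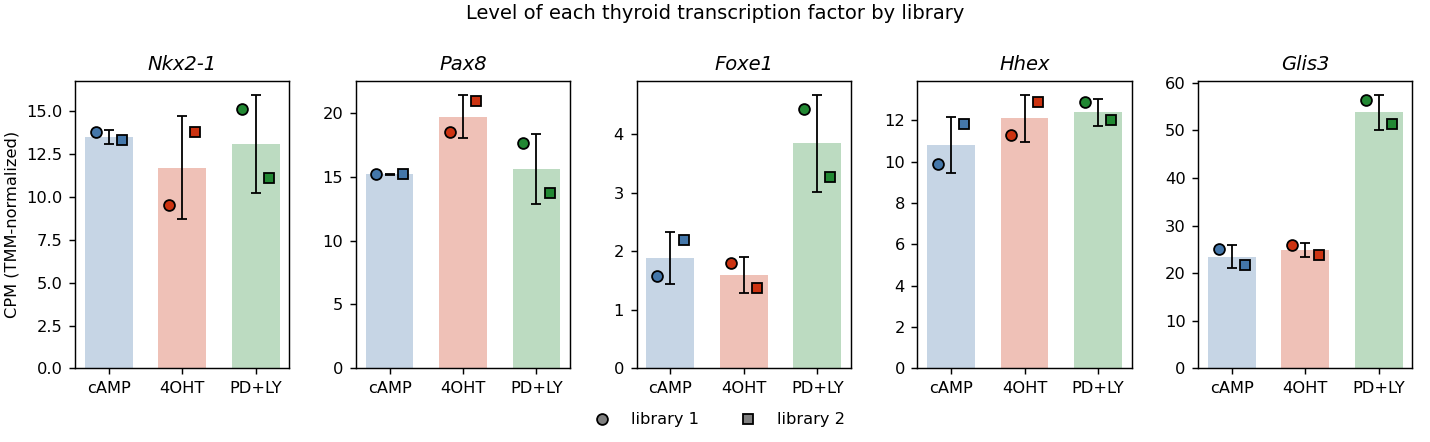
Level of each factor in CPM (y axis, from 0, own scale per gene) in the 3 groups (x axis), where points are libraries, bars the mean of 2 libraries and lines the SD. The PD+LY libraries of Glis3 stand at 56.4 and 51.3 CPM against 21.7 to 25.9 CPM in the other groups, Foxe1 is also highest in both PD+LY libraries, the 3 groups overlap for Nkx2-1, and for Hhex 4OHT overlaps with both other groups.

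Nkx2-1, the homeobox factor that marks the thyroid bud from its start, lies on the minus strand of chromosome 12 (GRCm38, 56531958 to 56536908) with 3 blocks of exons. Its level was 13.8 and 13.3 CPM in the cAMP libraries, 9.54 and 13.8 CPM in 4OHT, and 15.1 and 11.1 CPM in PD+LY. Both the lowest and one of the higher values belonged to the same group, 4OHT, and the 3 groups overlapped. The group means were 13.5 ± 0.411, 11.7 ± 2.99 and 13.1 ± 2.86 CPM (SD, n = 2 each). The log2 fold change was -0.21 ± 0.21 (SE) between 4OHT and cAMP (edgeR adjusted p = 0.595) and 0.16 ± 0.21 between PD+LY and 4OHT (edgeR adjusted p = 0.615). The 95% interval of the first ran from -0.67 to 0.25 and that of the second from -0.30 to 0.62. With 2 libraries a group, a change of Nkx2-1 within these bounds is not excluded. PD+LY and cAMP differed by -0.05 ± 0.21 (edgeR adjusted p = 0.89).

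Markers of other tissues that use Nkx2-1 were read beside it. Of 9 lung markers, 6 fell and none rose between 4OHT and PD+LY, where 12.1% of all tested genes were lower and 10.7% higher. They were the surfactant proteins Sftpb (log2 fold change -4.34), Sftpa1 (-3.47) and Sftpd (-1.16), the secretoglobins Scgb3a2 (-2.97) and Scgb1a1 (-0.97), and Napsa (-1.27). Sftpb went from 197 and 215 CPM to 11.7 and 8.71 CPM. The summed level of the lung list was 298 to 330 CPM in cAMP, 350 to 382 in 4OHT and 109 to 136 in PD+LY. Most of the sum in cAMP and 4OHT was Sftpb, which stood at 179 and 167 CPM in cAMP. All but Sftpa1 and Sftpc were above the floor in every library, Abca3 and Foxj1 without a call. No lung marker was called between 4OHT and cAMP, and 4 fell between cAMP and PD+LY (Sftpb, Sftpa1, Scgb3a2 and Napsa), where 13.7% of all genes were lower. The forebrain list summed to 192 to 205, 114 and 148 to 151 CPM in the same order, nearly all of it Otx2, which was called in every comparison (log2 fold change -0.84 from cAMP to 4OHT, 0.40 from 4OHT to PD+LY and -0.44 from cAMP to PD+LY). The other 6 forebrain markers, of which Lhx6, Rax and Six3 were above the floor throughout, summed to 6.01 to 9.38 CPM over all libraries and none was called. The part of lung or forebrain cells in the Nkx2-1 counts was not tested, and neither was which cells held Otx2.

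Pax8, the paired-box factor that drives Tg and Slc5a5, lies on the minus strand of chromosome 2 (24420560 to 24475599) with 13 exon blocks, of which one shares up to 367 bases with Gm13415 on the other strand. Since counting ignored strand, reads there cannot be assigned to one of the pair. Pax8 stood at 15.2 and 15.2 CPM in cAMP, 18.5 and 20.9 CPM in 4OHT, and 17.6 and 13.7 CPM in PD+LY. Both 4OHT libraries were above the other 4, so 4OHT did not overlap with either group. The difference between 4OHT and cAMP was 0.38 ± 0.16 on the log2 scale, with an interval of 0.02 to 0.73. It passed an unadjusted p in edgeR's test (0.041) but not the adjusted one (0.188), and it was the single factor to do so in this comparison. PD+LY was -0.34 ± 0.16 from 4OHT (edgeR adjusted p = 0.157) and 0.04 ± 0.16 from cAMP (edgeR adjusted p = 0.882). Without the first PD+LY library the former became -0.53 with an edgeR adjusted p of 0.0449. Of the 8 kidney and otic markers, 6 were tested and 2 fell between cAMP and 4OHT, Nphs1 (log2 fold change -1.28) and Lhx1 (-4.53), where 4.35% of all genes were lower. Lhx1 passed the filter on its cAMP libraries alone, with 32 and 78 counts there. It held 2 and 2 counts in 4OHT, under the floor, and 6 and 2 in PD+LY. Nphs1 also fell between 4OHT and PD+LY (-2.46), and both were lower in PD+LY than in cAMP. Gata3, Osr1, Six2 and Wt1 were above the floor in every library without a call, and none of the 8 was at 0 in every library. The summed level was 38.2 to 45.0 CPM in cAMP, 16.3 to 21.0 in 4OHT and 8.46 to 9.24 in PD+LY. Nphs1 made up most of it in cAMP (29.1 and 30.9 CPM) and 4OHT (9.81 and 14.7), against 1.73 and 2.72 in PD+LY. The part of such cells in the Pax8 counts was not tested.

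Foxe1, a single-exon gene on the plus strand of chromosome 4 (46343609 to 46346412), was the least abundant factor. Its counts were 25 and 45 in cAMP, 27 and 25 in 4OHT, and 87 and 67 in PD+LY. On the CPM scale these were 1.57 and 2.19, 1.8 and 1.37, and 4.43 and 3.26. Both PD+LY libraries lay above all 4 others, which overlapped with each other. Foxe1 rose by 1.28 ± 0.35 on the log2 scale between 4OHT and PD+LY (95% interval 0.52 to 2.04, edgeR adjusted p = 0.0203) and by 1.01 ± 0.34 between cAMP and PD+LY (0.28 to 1.74, edgeR adjusted p = 0.0438). 4OHT was -0.27 ± 0.37 from cAMP (edgeR adjusted p = 0.71), with an interval from -1.07 to 0.54. The call against 4OHT was lost on leaving out either 4OHT library (edgeR adjusted p = 0.0667 and 0.169) or the first PD+LY library (0.102). The call against cAMP was also lost in DESeq2 (adjusted p = 0.0954), in an edgeR fit of those 2 groups alone (0.0565) and in 5 of the 6 edgeR fits that each left out a library, all but the second of PD+LY, with adjusted p of 0.0575 to 0.213. Up to 102 bases of the Foxe1 exon are shared with Gm12446 on the other strand, whose reads cannot be told apart from those of Foxe1.

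Hhex, a homeobox factor present in the thyroid bud, lies on the plus strand of chromosome 19 (37434810 to 37440731). It was measured at 9.87 and 11.8 CPM in cAMP, 11.3 and 12.9 CPM in 4OHT, and 12.9 and 12 CPM in PD+LY. The cAMP and 4OHT libraries overlapped, as did those of 4OHT and PD+LY, and both PD+LY libraries lay above both of cAMP. Hhex gave log2 fold changes of 0.16 ± 0.18, 0.04 ± 0.17 and 0.19 ± 0.17 for the step from cAMP to 4OHT, the step from 4OHT to PD+LY and that from cAMP to PD+LY (edgeR adjusted p = 0.639, 0.9 and 0.45). The intervals reached at most 0.57 upwards and -0.34 downwards. Of 7 tested liver and visceral endoderm markers, Amn (log2 fold change -1.94), Fgb (-2.54) and Hnf4a (-1.29) fell and Ttr (0.49) rose between 4OHT and PD+LY, 4 calls where 22.7% of all genes were called. Between cAMP and PD+LY, Afp (-3.80), Amn (-1.62), Apoa1 (-2.50) and Hnf4a (-0.90) fell and Ttr (0.35) rose, 5 calls where 25.7% were called. Afp and Apoa1 passed the filter on their cAMP libraries alone, Afp with 9 and 20 counts and Apoa1 with 13 and 19. In PD+LY Afp held 2 and 0 counts and Apoa1 2 and 4. Fgb passed the filter on its 4OHT libraries alone, with 18 and 32 counts there, 5 and 8 in cAMP and 10 and 0 in PD+LY. The list summed to 322 to 345, 305 to 327 and 382 to 398 CPM in cAMP, 4OHT and PD+LY, most of it Ttr, and without Ttr to 31.1 to 47.2, 45.1 to 51.7 and 12.7 to 16 CPM. Amn, Hnf4a and Ttr were above the floor in every library. Of 6 tested endothelial markers, Cdh5 (-1.47), Kdr (-2.31) and Tie1 (-3.46) fell and Pecam1 (0.36) rose between cAMP and 4OHT, where 8.39% of all genes were called. The same 3 were lower in PD+LY than in cAMP (-0.99, -1.65 and -2.62). Between 4OHT and PD+LY no endothelial marker passed edgeR's test, adjusted or not. Tie1 passed the filter only through its cAMP libraries, with 54 and 69 counts there, 4 and 6 in 4OHT and 6 and 16 in PD+LY. Most of the endothelial sum of 158 to 181 CPM was Pecam1, and the other 6 markers, of which Erg and Tek were also above the floor, summed to 29.9 to 32.5 CPM in cAMP, 10.4 to 12 in 4OHT and 13.6 to 15.5 in PD+LY. The part of these cells in the Hhex counts was not tested, and neither was which cells held Pecam1.

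Glis3, the largest gene of the group, lies on the minus strand of chromosome 19 (28258851 to 28680077) with 15 exon blocks. Its counts were 399 and 445 in cAMP, 388 and 433 in 4OHT, and 1108 and 1054 in PD+LY. The corresponding levels were 25.1 and 21.7, 25.9 and 23.8, and 56.4 and 51.3 CPM. The PD+LY libraries stood far above the other 4, which spanned 21.7 to 25.9 CPM. Glis3 rose by 1.12 ± 0.13 on the log2 scale between 4OHT and PD+LY (0.83 to 1.40, edgeR adjusted p = 0.000169) and by 1.21 ± 0.13 between cAMP and PD+LY (0.92 to 1.49, edgeR adjusted p = 5.58e-05). 4OHT differed from cAMP by 0.09 ± 0.13 (edgeR adjusted p = 0.743, interval -0.21 to 0.38). Both calls held in each of the 12 alternative fits of each comparison, with log2 fold changes of 1.05 to 1.19 against 4OHT and 1.11 to 1.31 against cAMP. The lower bound of the interval of Glis3 against 4OHT, 0.83, lay above the upper bounds of Nkx2-1, Pax8 and Hhex in that comparison, which were 0.62, 0.02 and 0.42.

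**Figure D2:**
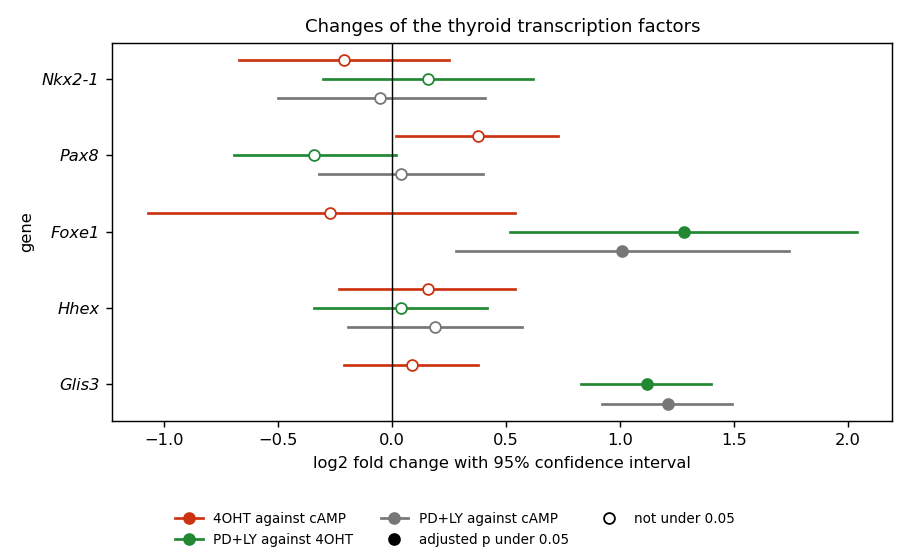
Log2 fold change (x axis) of each factor (y axis) in the 3 comparisons, with the 95% confidence interval from edgeR as a line and a filled point where the adjusted p is under 0.05. The 4 filled points are Foxe1 and Glis3 in the comparisons of PD+LY with 4OHT (1.28 and 1.12) and with cAMP (1.01 and 1.21).

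Set against all genes, the 2 factors called of 5 between 4OHT and PD+LY compare with a background of 22.7% of tested genes called in either direction, 10.7% higher and 12.1% lower. Between cAMP and PD+LY the 2 of 5 compare with 25.7% of tested genes, 12.1% higher and 13.7% lower. Between cAMP and 4OHT, 8.39% of tested genes were called, 4.04% higher and 4.35% lower, and edgeR called 0 of the 5 factors, with 1 at an unadjusted p under 0.05, as DESeq2 also called 0. Both called factors also exceeded a 2-fold change, which together with the adjusted p was reached by 7.26% of genes between 4OHT and PD+LY, 9.24% between cAMP and PD+LY and 2.67% between cAMP and 4OHT. In the test over all 3 groups, Glis3 (edgeR adjusted p = 5.21e-05) and Foxe1 (0.0235) were called, whereas Pax8 (0.152), Hhex (0.618) and Nkx2-1 (0.684) were not, where 31.2% of all genes were. A list of 5 with 2 called is too short to read beyond these values. The median log2 fold change of the 5 factors was 0.09, 0.16 and 0.19 from cAMP to 4OHT, from 4OHT to PD+LY and from cAMP to PD+LY, where the median of all tested genes was -0.002, 0.008 and 0.005.

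Levels of different genes can be compared per length, as RPKM, here the CPM divided by the kilobases of merged exons. In cAMP the order was Nkx2-1 at 4.77 ± 0.145 RPKM, Glis3 at 2.65 ± 0.273, Pax8 at 2.5 ± 0.00555, Hhex at 2.14 ± 0.268 and Foxe1 at 0.671 ± 0.157 RPKM (SD, n = 2). Glis3 and Pax8 overlapped in that order, and the other neighbours did not. In 4OHT Pax8 came second with 3.25 ± 0.282 RPKM, overlapping with Nkx2-1 at 4.1 ± 1.05, and Glis3 followed at 2.81 ± 0.171 RPKM. In PD+LY Glis3 was first at 6.09 ± 0.414 RPKM, above Nkx2-1 at 4.61 ± 1.01, while Pax8 at 2.58 ± 0.456 and Hhex at 2.46 ± 0.129 overlapped. Foxe1 was last in all 3 groups, at 1.37 ± 0.296 RPKM in PD+LY. Merged exons count all isoforms of a gene, so a gene with long unused exons, as may be the case for the 8842 exonic bases of Glis3 or the 6061 of Pax8, is placed too low.

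The region ahead of the start site is shown for Glis3, the factor with the clearest change, and for Nkx2-1 and Pax8, which were not called. Of the 5 factors 4 matched an entry in the RefSeq promoter set (GRCm38.p6), the fourth being Hhex, and Foxe1 did not. Each run holds the 250 bases before the start site, 5′ to 3′ along the gene's strand, with GC boxes (GGGCGG or its complement CCGCCC) and the CCAAT box in capitals. The positions are chr19:28680078-28680327 for Glis3, chr12:56536909-56537158 for Nkx2-1 and chr2:24475600-24475849 for Pax8, all on the minus strand.
Glis3: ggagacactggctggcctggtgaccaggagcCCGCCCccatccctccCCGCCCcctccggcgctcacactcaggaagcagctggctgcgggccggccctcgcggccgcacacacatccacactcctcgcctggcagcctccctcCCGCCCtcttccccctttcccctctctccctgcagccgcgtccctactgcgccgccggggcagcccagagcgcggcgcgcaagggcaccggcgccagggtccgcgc
Nkx2-1: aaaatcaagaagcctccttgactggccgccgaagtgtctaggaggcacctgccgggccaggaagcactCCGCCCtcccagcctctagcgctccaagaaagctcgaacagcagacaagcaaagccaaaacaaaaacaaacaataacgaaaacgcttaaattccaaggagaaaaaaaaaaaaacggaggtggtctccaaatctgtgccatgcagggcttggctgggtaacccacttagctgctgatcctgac
Pax8: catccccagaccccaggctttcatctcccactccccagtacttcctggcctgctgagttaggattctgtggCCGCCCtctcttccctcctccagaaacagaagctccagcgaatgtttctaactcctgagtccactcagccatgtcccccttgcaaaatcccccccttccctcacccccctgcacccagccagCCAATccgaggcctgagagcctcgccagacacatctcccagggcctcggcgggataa
The Glis3 run was 75.6% G and C with 3 GC boxes, the last starting 106 bases before the start site. The Nkx2-1 run was 50.8% G and C with 1 GC box, and the Pax8 run 60.4% with 1 GC box and 1 CCAAT box, 57 bases before the start. Hhex, at 76%, held 3 GC boxes and 1 CCAAT box, so the number of boxes did not separate Glis3 from an uncalled factor. On both strands, a GC box occurs in 32.7% and a CCAAT box (CCAAT) in 33.8% of the 32851 promoters of that set. The letters searched for factors downstream of cAMP, MAPK and PI3K signalling were the CRE (TGACGTCA, in 1.55% of promoters), its shorter part (TGACG, in 17.8%, which every CRE also holds), an ETS motif (CCGGAAG, 6.91%), an AP-1 motif (TGAGTCA, 4.46%) and a FOXO motif (GTAAACA, 3.17%). None of these, nor an NKX2 motif (CAAGTG, 11.6%) or a TATA box (TATAAA, 12.4%), was in any of the 4 runs. That says only that these letters are not in these windows. The transgenes of Nkx2-1 and Pax8 are not under these sequences.

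Whether the factors changed in step with each other was read within each library, where the ratio of 2 counts does not depend on depth. Per 100 Nkx2-1 counts, the libraries of cAMP held 110 and 115 Pax8 counts, those of 4OHT 194 and 152, and those of PD+LY 116 and 123. The 4OHT ratios were thus the highest, 1.53-fold over cAMP. Glis3 stood at 181 and 164 in cAMP, 271 and 173 in 4OHT and 373 and 462 in PD+LY, a ratio 1.92-fold that of 4OHT and 2.41-fold that of cAMP. Foxe1 stood at 11.4 and 16.5, 18.9 and 9.96, and 29.3 and 29.4, so both PD+LY libraries had nearly the same ratio although their CPM differed. Hhex stood at 71.4 and 89, 118 and 93.6, and 85.2 and 108. With 2 libraries against 2, the exact two-sided permutation test cannot go below p = 0.3333, the value found for each pair of groups that did not overlap, so no ratio can pass p < 0.05.

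**Figure D3:**
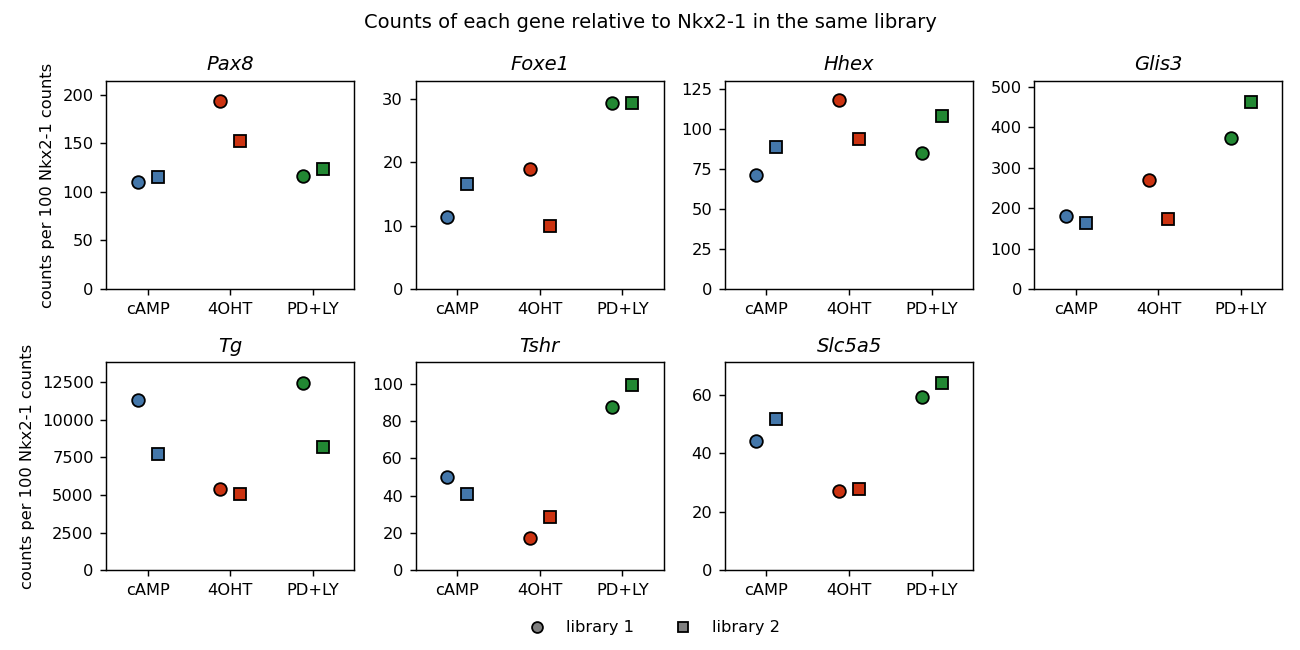
Counts of 4 factors and 3 target genes per 100 Nkx2-1 counts of the same library (y axis from 0, own scale per gene) in the 3 groups (x axis), 1 point a library. Tg, Tshr and Slc5a5 are lowest in both 4OHT libraries, while Foxe1 and Glis3 are highest in both PD+LY libraries and Pax8 is highest in both 4OHT libraries.

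The same ratio was taken for 3 genes that these factors act on. Per 100 Nkx2-1 counts there were 11300 and 7710 Tg counts in cAMP, 5390 and 5040 in 4OHT, and 12400 and 8180 in PD+LY. Tshr gave 50 and 40.8, 17.5 and 28.7, and 87.5 and 99.1, and Slc5a5 44.1 and 51.8, 27.3 and 27.9, and 59.3 and 64. All 3 fell below cAMP in both 4OHT libraries relative to Nkx2-1 and stood above 4OHT in both PD+LY libraries. Of the 7 genes (4 factors and 3 targets), the ratio did not overlap between the groups for 5 from cAMP to 4OHT, for 6 from 4OHT to PD+LY and for 5 from cAMP to PD+LY. Over all tested genes other than Nkx2-1 this was so for 41.0%, 31.3% and 46.3%. The exceptions were Foxe1 and Glis3 in the first, Hhex in the second, and Hhex and Tg in the last.

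Genes of hormone synthesis and iodide handling, which lie downstream of the 5 factors, were taken as a list for comparison. The list holds 14 such genes, of which 13 were tested and Slc26a4 was too low. Between cAMP and 4OHT 2 fell and none rose, Tg, the hormone precursor (log2 fold change -1.10, edgeR adjusted p = 0.0304), and Slc5a5, the sodium-iodide symporter (-1.0, 0.0344), where 4.35% of all genes were lower. Tshr, the TSH receptor, was at -1.10 and did not pass (edgeR adjusted p = 0.0594). The count of 2 became 0 without the first library of cAMP or of 4OHT, 1 without the second of either, and 4 and 5 without the first and the second of PD+LY. Between 4OHT and PD+LY 5 rose and none fell, 3 without the first 4OHT library, where 10.7% of all genes were higher. These were Tshr (2.08), Dio1, a deiodinase (2.13), Iyd, which recovers iodide (1.85), Slc5a5 (1.30) and Tg (1.20), with edgeR adjusted p from 0.000801 to 0.00913.

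Against cAMP the PD+LY group was called for 3 of the 13 hormone and iodide genes, with Iyd (log2 fold change 1.07) and Tshr (0.98) higher and Ano1, a chloride channel, lower (-0.93), a share near the 25.7% of all genes. Tg and Slc5a5 were at 0.10 and 0.30 in this comparison (edgeR adjusted p = 0.817 and 0.375). The count of 3 became 0 without the second cAMP library and 1 without the first of PD+LY. The median over the 13 genes was -0.76 from cAMP to 4OHT, 0.3 from 4OHT to PD+LY and 0.3 from cAMP to PD+LY. In CPM, Slc5a5 read 6.1 and 6.87 in cAMP, 2.6 and 3.84 in 4OHT, and 8.96 and 7.1 in PD+LY. Nkx2-1, beside it, read 13.8 and 13.3, 9.54 and 13.8, and 15.1 and 11.1 CPM, and Pax8 was highest in both 4OHT libraries.

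**Figure D4:**
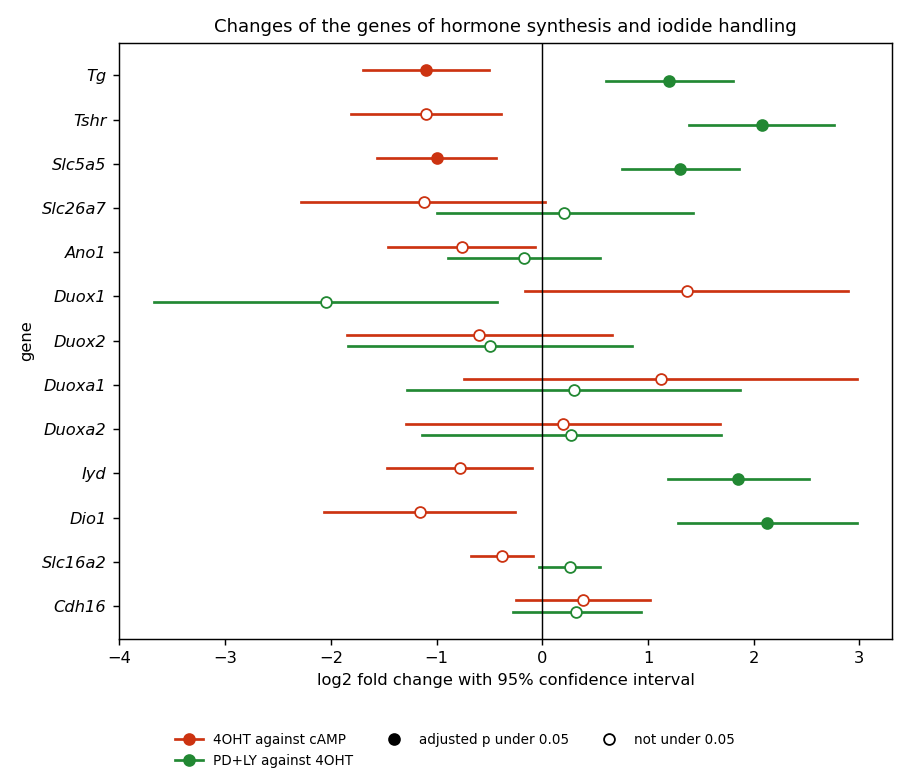
Log2 fold change (x axis) of the 13 tested genes of hormone synthesis and iodide handling (y axis), 4OHT against cAMP in red and PD+LY against 4OHT in green, with 95% confidence intervals and filled points at an adjusted p under 0.05. The 2 filled red points (Tg, Slc5a5) lie below 0 and the 5 filled green points above it.

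Other regulators of thyroid and foregut development were taken as a list of 23, of which Nkx2-5, Shh and Tubb1 were too low to test. Between cAMP and 4OHT, 1 of the 20 tested rose, Isl1, a homeobox factor of pharyngeal and heart progenitors (log2 fold change 1.86). The 4 that fell were Ntn1, a guidance cue (-1.17), Fgf8, a growth factor (-3.24), Fgfr2, the receptor of Fgf10 (-0.59), and Eya1, a transcriptional cofactor (-1.09). Fgf8 passed the filter on its cAMP libraries alone, with 25 and 96 counts there, 4 and 7 in 4OHT and 4 and 4 in PD+LY. Between 4OHT and PD+LY, Fgfr2 (1.38) and Sox2 (0.33) rose while Bmp4 (-1.43), Sox9 (-0.82), Cdca8 (-0.36) and Ntn1 (-0.54) fell. Sox2 is also in the list of pluripotency markers, so its rise is not particular to the regulators. Against cAMP, PD+LY was higher for Fgfr2 (0.79) and lower for Ntn1 (-1.71), Bmp4 (-1.20), Fgf8 (-3.95), Fgf10 (-0.60), Sox17 (-0.73) and Eya1 (-0.88). The 5, 6 and 7 calls of 20 stand beside 8.39%, 22.7% and 25.7% of all genes, and the shares of the last 2 comparisons lie near the background. The list's medians were -0.18, -0.3 and -0.32 in the 3 comparisons. The 5 calls between cAMP and 4OHT became 3 and 1 without the first and the second cAMP library and 1 and 2 without the first and the second of 4OHT, and the 6 calls between 4OHT and PD+LY became 3 and 2 without these 4OHT libraries. Fgfr2 was thus called in all 3, and like Glis3 it was highest in PD+LY, but unlike Glis3 it also fell between cAMP and 4OHT.

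The 12 partner proteins through which the factors work, such as coactivators, all passed the filter. None was called between cAMP and 4OHT, against 8.39% of all genes. Between 4OHT and PD+LY, Apex1 (log2 fold change 0.46), Rb1, a Pax8 partner and cell cycle inhibitor (0.81), and Crebbp, an acetyltransferase (0.41), rose, while Nfic, a nuclear factor I protein (-0.43), fell. Between cAMP and PD+LY, Nfix (0.89) and Rb1 (0.84) rose. The 4 and 2 calls of 12 stand beside 22.7% and 25.7% of all genes. No partner changed by as much as 2-fold among those called, and the medians of the list were -0.02, 0.12 and 0.03. The 4 calls between 4OHT and PD+LY became 1 and 0 without the first and the second 4OHT library, and 3 were called between cAMP and 4OHT on leaving out the first or the second PD+LY library.

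Of 11 paralogs of the 5 factors, 4 reached the test and only Glis1 and Glis2 were above the floor in every library. Nkx2-6 and Foxe3 had no count in any library. Glis2, a family member of Glis3, was not called in any comparison, with log2 fold changes of -0.10, 0.34 and 0.24 from cAMP to 4OHT, from 4OHT to PD+LY and from cAMP to PD+LY (edgeR adjusted p = 0.742, 0.114 and 0.244). Glis1 fell between cAMP and PD+LY, with a log2 fold change of -1.82 (edgeR adjusted p = 0.0295), opposite in sign to the rise of Glis3 in the same comparison.

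Markers of other cell types moved between the groups in which Foxe1 and Glis3 rose. The 8 mesenchymal markers summed to 1160 to 1250 CPM in cAMP, 2180 to 2300 in 4OHT and 3950 to 4600 in PD+LY. This came from 3 collagens, as Col1a1, Col1a2 and Col3a1 rose between 4OHT and PD+LY (log2 fold change 0.62, 1.11 and 1.46), while Pdgfrb (-1.26) and Twist1 (-1.03) fell. Without the collagens the other 5 markers summed to 235 to 262, 263 to 291 and 234 to 334 CPM. The collagens and Dcn also rose between cAMP and 4OHT (0.84 to 1.18). Against cAMP, PD+LY was higher for the collagens and Dcn (1.24 to 2.44) and lower for Pdgfrb (-1.06). Pdgfra and Lum were not called in any comparison.

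The 10 epithelial markers summed to 1210 to 1310, 925 to 1050 and 832 to 875 CPM. Between 4OHT and PD+LY, 8 of them fell (Epcam, Krt7, Krt8, Krt18, Krt19, Cldn3, Cldn4 and Esrp1, log2 fold changes of -1.64 to -0.42) and Cdh1 rose (0.67). The 9 epithelial calls of 10 and the 5 mesenchymal calls of 8 between 4OHT and PD+LY stand beside 22.7% of all genes. Between cAMP and 4OHT 4 epithelial markers fell and 1 rose, where 8.39% of all genes were called. Between cAMP and PD+LY 9 of them fell, where 25.7% of all genes were called. Of the 8 mesenchymal markers, 4 were called between cAMP and 4OHT and 5 between cAMP and PD+LY, beside the same 8.39% and 25.7%. No library fell under the floor for any marker of these 2 lists. The part of the mesenchymal or epithelial cells in the rise of Foxe1 and Glis3 was not tested.

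Of 7 pancreatic markers, relevant to Glis3 and Hhex, 2 were tested. Neurog3, a factor of endocrine precursors, had 0.629 and 2.1 CPM in cAMP, 0.934 and 1.15 in 4OHT, and 4.02 and 4.43 in PD+LY. Like Glis3 it was highest in both PD+LY libraries, and it rose against 4OHT (log2 fold change 2.00, edgeR adjusted p = 0.00898) and against cAMP (1.58, 0.0196). Sst, somatostatin, fell in both comparisons (-2.11 and -3.18). The list summed to 2.8 to 6.04 CPM over all libraries, Ins1 was at 0 in every library, Pdx1 held 0 to 2 counts, and the part of such cells in the Glis3 counts was not tested. The C cell and parathyroid list stood at 8 to 16.2 CPM, with Pth at 0 in every library, and Calca (-2.60) and Calcb (-3.42) fell between 4OHT and PD+LY. Calcb passed the filter on its 4OHT libraries alone, with 8 and 12 counts there and 0 and 2 in PD+LY. The 8 pluripotency markers, all above the floor, summed to 3540 to 3660 CPM in cAMP, 3970 to 4150 in 4OHT and 4060 to 4370 in PD+LY. They did not move together. Between 4OHT and PD+LY 2 rose, Nanog (0.60) and Sox2 (0.33), and 2 fell, Tdgf1 (-0.82) and Utf1 (-0.67), where 22.7% of all genes were called. Between cAMP and PD+LY 4 rose and 2 fell, again Tdgf1 (-0.86) and Utf1 (-0.98), where 25.7% of all genes were called. Between cAMP and 4OHT 1 rose, Dppa5a (0.33), where 8.39% were called.

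**Figure D5:**
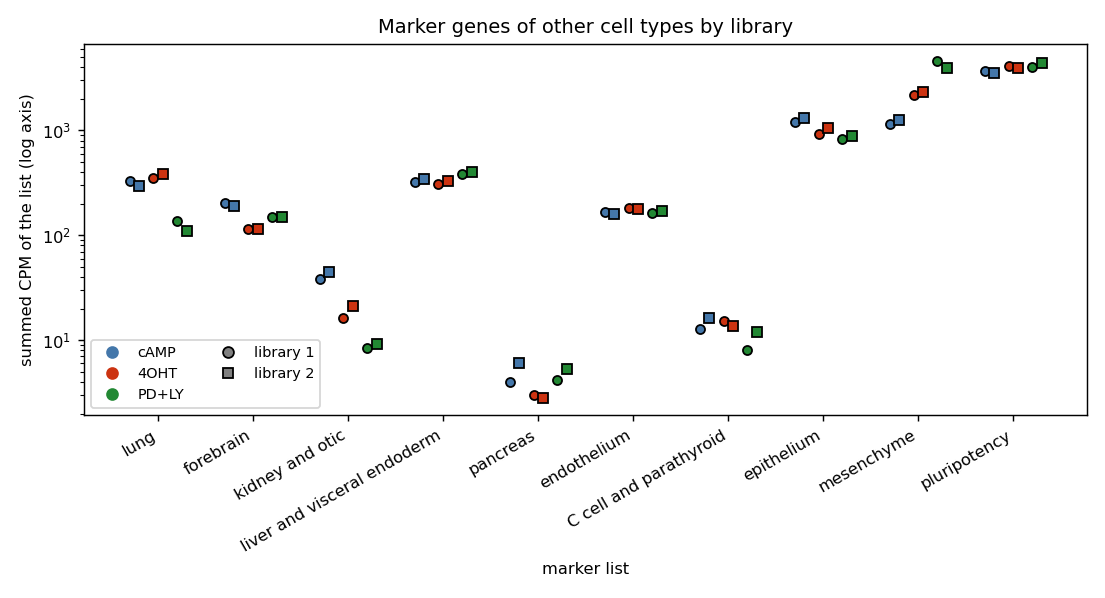
Summed CPM (y axis, log scale) of each marker list of another cell type (x axis), 1 point a library, coloured by group. The lung list is lowest in PD+LY (109 to 136 CPM), the mesenchymal list rises from 1160 to 1250 CPM in cAMP to 3950 to 4600 CPM in PD+LY through 3 collagens, its other 5 markers summing to 234 to 334 CPM over all libraries, and the pancreatic list stays at or under 6.04 CPM.

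The genes whose log2 CPM followed each factor most closely over the 6 libraries differed from factor to factor. For Glis3 they were Jam2 (Pearson r = 0.9989), Ostm1 (0.9985) and Olfml2b (0.9984), and for Foxe1 they were Cnn1 (0.9952), Sec11a (0.9907) and Cisd2 (0.989). Pax8 was closest to Scin (0.9855), Dapk1 (0.9851) and Fzd1 (0.9786), Hhex to Cebpzos (0.975), Vkorc1 (0.9729) and Elmod3 (0.9649), and Nkx2-1 to B3galnt1 (0.9666), Rsl1 (0.9644) and Map2k6 (0.9639). These are the top 3 of 12223 genes or more on 6 points that share groups and libraries, so such values describe the libraries and carry no test. Between the factors themselves r was 0.9 for Foxe1 and Glis3, 0.1 for Nkx2-1 and Pax8, -0.38 for Pax8 and Foxe1, and between -0.29 and 0.44 for the others.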

How the data were processed

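Bulk RNA-seq of 6 libraries was analysed, 2 each for cAMP, 4OHT and PD+LY. The deposited values are raw read counts per gene symbol. According to the methods, the authors trimmed reads with Trimmomatic, aligned them to mm10 with HISAT2 and counted them with HTSeq without regard to strand. Reads shared by overlapping genes on opposite strands can therefore not be assigned. Counts were tested in R 4.3.3 with edgeR 4.0.16: filterByExpr (minimum count 10, total 15) kept 15256 of 25239 genes, TMM factors were 0.99 to 1.01, and 1 quasi-likelihood model of 3 groups was fitted to all libraries, with Benjamini-Hochberg adjustment over tested genes. The procedure was tested on simulated data. DESeq2 1.42.0, RLE factors, other filters, a replicate block, fits of 2 groups and fits leaving out 1 library served as alternatives. The floor of 3 counts covers counting error only. Replicates differed by more than counting error, the chi-square over its degrees of freedom being 4.63 to 18.5. Positions and exon lengths came from GENCODE M21 (GRCm38), which held 24366 of the symbols. The GC and CCAAT boxes were added after the sequences had been seen.

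Some listed genes are not reported here and are left out of all list counts and sums. The factors and gene lists were chosen with earlier results of these data known. All 5 factors are named in each comparison, with the 3 genes Tg, Tshr and Slc5a5. Of the hormone, regulator and partner lists, called genes are named (at most 8 per list and comparison). For each factor the 3 genes with the highest r among those averaging 50 counts or more are named. Paralogs and markers of tissues that use the factors are given by counts and ranges, and named where called or above the floor. Of the other marker lists some called genes are named, and sums without the leading genes given, after their values were seen. Levels for correlation are log2 CPM with a prior count of 2.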

Additional observations from a re-analysis of the deposited data

How the results depend on the processing

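Glis3 kept its calls in PD+LY under every alternative tried, and Foxe1 kept its direction but not always its call. Foxe1 rests on 25 to 87 counts a library, and 2 libraries a group leave wide intervals. Under DESeq2, 1 factor (Glis3) was called between cAMP and PD+LY in place of 2, and an edgeR fit of only the 2 groups compared also gave 1 there and called 3 partner proteins between cAMP and 4OHT in place of 0. A 2-fold threshold left 1 hormone or iodide gene between cAMP and 4OHT in place of 2, 2 regulators between 4OHT and PD+LY in place of 6 and 3 between cAMP and PD+LY in place of 7, 1 hormone or iodide gene between cAMP and PD+LY in place of 3, and 0 partner proteins in both comparisons. Without a filter on low counts, 6 hormone or iodide genes were called between cAMP and 4OHT and 5 between cAMP and PD+LY, and 1 and 4 partner proteins. With the replicate block these were 5 and 5 hormone or iodide genes, and 4 and 4 partner proteins. The cause of these shifts was not tested.

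The replicate block changed no call of a factor (Foxe1 1.28 and Glis3 1.12 between 4OHT and PD+LY, edgeR adjusted p = 0.0106 and 1.07e-06). The correlation of same-numbered libraries' deviations was 0.07, 0.21 and 0.06 for the 3 pairs of groups, not over 0.1 in each, and the labels do not tie a number to a shared origin, so the numbers were not taken to pair the libraries.

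Each fit without 1 library assumes that a lone library varies like the other groups. Over these fits the number of factors called was 0 between cAMP and 4OHT, and 1 to 2 in PD+LY against 4OHT, in PD+LY against cAMP and over the 3 groups. Hormone or iodide genes called ranged from 0 (without the first library of cAMP or of 4OHT) to 5 (without the second PD+LY library) between cAMP and 4OHT, from 3 (without the first 4OHT library) to 5 between 4OHT and PD+LY, and from 0 (without the second cAMP library) to 3 between cAMP and PD+LY. The numbers of regulators and partner proteins called between cAMP and 4OHT and between 4OHT and PD+LY also changed with the library left out, as given with each list. Differences that had not passed the test changed sign in some of these fits. For 4OHT against cAMP the log2 fold change ranged from -0.5 to 0.03 for Nkx2-1, from -0.48 to 0.01 for Foxe1 and from -0.01 to 0.19 for Glis3. For PD+LY against 4OHT it ranged from -0.08 to 0.46 for Nkx2-1 and from -0.05 to 0.15 for Hhex. For PD+LY against cAMP it ranged from -0.29 to 0.16 for Nkx2-1 and from -0.15 to 0.21 for Pax8.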
